A study of Mus musculus with 7 samples.

Results

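Glutathione transferases and the genes of antioxidant defence were followed in mouse liver with and without miR-122, the microRNA that hepatocytes make in large amounts. The set was named gene by gene: 22 glutathione transferases of the cytosol, the mitochondrion and the membranes, and 14 enzymes and regulators of oxidant defence. A member was measured when the platform annotation gave a probe set that gene's symbol alone, and this held for 35 of the 36 members among 18193 genes in all. Gsta1 was represented by a probe set shared with Gsta2 and Gm3776 and was kept apart from the tests.

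The arrays came from frozen livers of mice aged 2 months on a B6/129 background, 3 wild type (labelled WT-27, WT-103, WT-104) and 4 mir-122 knockout, with 1 array of total RNA for each animal. Values of single animals are always given in one order, for wild type as just named and for knockout with KO-03 first, then KO-90, then KO-91 and last KO-94. The labels do not say whether the deletion acts in all tissues or in hepatocytes alone, and they give no sex, litter or scan date. Each numbered animal was taken as a separate sample, and the spread between animals is the error behind every test. Values are log2 expression values, so a difference of 1 is a doubling. Values of different genes are not set against each other, because each probe set has its own response. A knockout minus wild-type difference was called when its limma adjusted p was under 0.05. RNA of whole liver was measured, so fewer cells of a type and less RNA per cell cannot be told apart.

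Glutathione transferases join the tripeptide glutathione to reactive, electrophilic compounds so that they can be exported. The liver is rich in them, and the alpha, mu, pi, theta, omega and zeta classes of the cytosol differ in the substrates they accept. Nfe2l2 encodes the transcription factor Nrf2, which Keap1 marks for destruction until electrophiles or oxidants disable Keap1. Nrf2 then enters the nucleus, pairs with small Maf proteins and binds antioxidant response elements near genes of glutathione synthesis, conjugation and quinone reduction.

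The core of that element, TGACNNNGC, was looked for on both strands in the 250 bases before the RefSeq start of each transcript (GRCm38.p6). Of the 36 members 30 had such a window, with 41 windows in all, and 8 of the 41 windows (19.5%) held a match, against 10.2% of 32851 windows of all genes. The 8 members with a match were Nfe2l2, Gclm, Gstm5, Gstm7, Gsta3, Mgst1, Txnrd1 and Sod1. The windows of Gstm3, Nqo1, Gstk1, Gstm2 and Gstm6 held none, which says only that these letters are not within 250 bases of a start. Shown here are the matches of the called regulator Nfe2l2, of the glutathione synthesis subunit Gclm, and of 2 mu-class neighbours, Gstm5 and Gstm7, whose expression values differed in opposite directions. Capitals mark the 9 bases of the core, and each sequence reads with the gene, 5′ to 3′. In Gclm the core lies on the opposite strand, so its reverse complement is what appears in capitals.
Nfe2l2, chr2:75704885-75704913, minus strand: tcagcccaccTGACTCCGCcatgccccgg
Gclm, chr3:122245413-122245441, plus strand: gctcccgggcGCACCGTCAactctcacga
Gstm5, chr3:107895802-107895830, plus strand: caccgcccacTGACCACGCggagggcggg
Gstm7, chr3:107931725-107931753, minus strand: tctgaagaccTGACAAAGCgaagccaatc
The Gstm7 match precedes one of its starts and lies within the span of a longer Gstm7 transcript. The cores lie 240 to 232 bases before the start in Nfe2l2, 134 to 126 in Gclm, 42 to 34 in Gstm5 and 129 to 121 in Gstm7. These are letter matches, and no binding was measured in these livers.

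In miR-122 knockout liver, 2 of the 35 measured members were called and both were higher: the regulator Nfe2l2 and the mu-class transferase Gstm3. None was called lower, and 33 did not pass. Among all genes 2.58% were called higher and 0.951% lower. Called in either direction were 5.71% of the members and 3.53% of all genes. All-gene shares, here and below, include dim genes, which added few calls. With only genes at or above the median expression level tested, 444 genes were called higher and 184 lower, beside 470 and 173 of all genes. Those calls came from far fewer tested genes, so the share called among them was above 3.53%. The members' 5.71% did not exceed that share. The members then had 2 higher and 0 lower. Whether member shares exceed those of genes of similar level was not tested. Without adjustment, 14 of the 35 had a p under 0.05, against 16.4% of all genes. In 9 members (25.7%) the knockout arrays did not overlap the wild-type arrays, 4 of them higher and 5 lower, against 15.8% of all genes (9.15% higher and 6.62% lower). The median difference of the members was 0.08 and that of all genes 0.01, and the members' differences ran from -0.44 (Gstm6) to 0.88 (Hmox1).

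**Figure D1:**
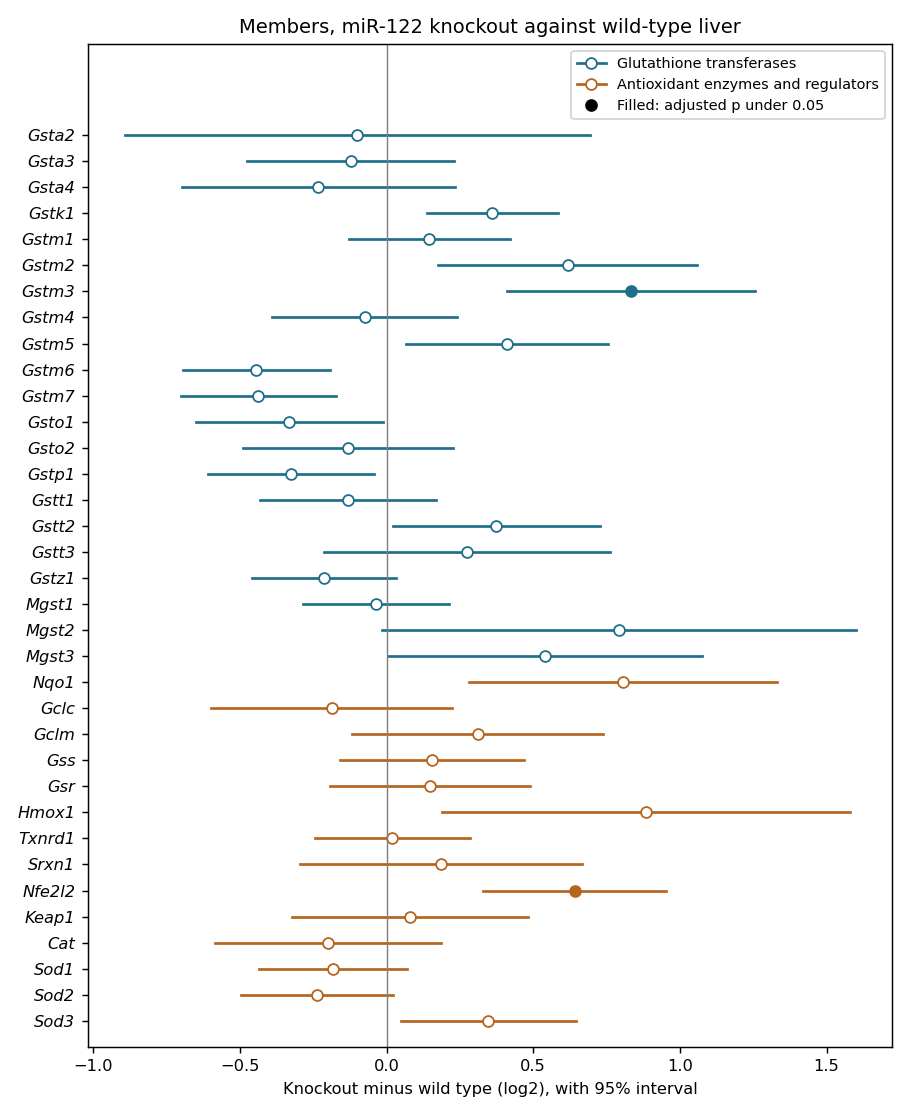
Difference between knockout and wild type (log2, x axis) for each of the 35 measured members (y axis), with its 95% interval from limma. Filled points, Gstm3 at 0.83 and Nfe2l2 at 0.64, passed the adjusted threshold; the intervals of Gstm6 and Gstm7 lie wholly below 0 and their points are open because they did not pass.

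The mu-class transferases held both the called transferase and the lowest differences of the whole set. The 7 mu genes lie side by side on chromosome 3 with 0 other protein-coding genes between them, in the order Gstm5, Gstm7, Gstm6, Gstm3, Gstm2, Gstm1 and Gstm4 in the RefSeq table. One of the 7 rose, 0 fell and 6 did not pass.

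Gstm3 measured 10.76, 11.41 and 11.08 in wild-type animals and 11.72, 12.28, 11.87 and 11.78 in knockout animals. Every knockout animal lay above every wild-type animal, with KO-90 the highest. Wild-type liver averaged 11.08 ± 0.32 (SD, n = 3) and knockout liver 11.91 ± 0.25 (SD, n = 4), which is a difference of 0.83 ± 0.19 (SE) or 1.78-fold (limma adjusted p = 0.0469). A second probe set of Gstm3 averaged 8.94 ± 0.13 (SD, n = 3) without the deletion and 9.94 ± 0.32 (SD, n = 4) with it, and rose when every probe set was tested on its own (limma adjusted p = 0.0243). In that fit the probe set used here was at 0.0611. The gene's call also depended on single animals: it was lost without KO-91 (limma adjusted p = 0.112), KO-90 (0.0978), KO-94 (0.0714) or any 1 wild-type animal (0.0670 to 0.159), and kept without KO-03 (0.0351). With median centring it was 0.0502. Its difference stayed between 0.67 and 0.995 in the 7 fits that left out 1 animal.

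Gstm2, the next gene in the cluster, measured 8.61, 8.65 and 9.28 in wild-type animals and 9.18, 9.69, 9.37 and 9.61 in knockout animals. WT-104 lay above KO-03, so the groups overlapped. The difference was 0.62 (95% interval 0.18 to 1.06) and did not pass (limma adjusted p = 0.145). It passed in 1 of 19 alternatives, the fit without KO-03 and WT-104 together (limma adjusted p = 0.0179).

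Gstm6 and Gstm7, adjacent members on the other side of Gstm3, had lower values in knockout. Gstm6 measured 10.18, 10.05 and 10.18 in wild-type animals and 9.82, 9.71, 9.52 and 9.72 in knockout animals. Gstm7 measured 9.12, 9.04 and 9.03 in wild type and 8.44, 8.79, 8.56 and 8.70 in knockout. In both genes all knockout animals lay below all wild-type animals. The differences were -0.44 ± 0.11 (SE) and -0.44 ± 0.12 (SE), and neither passed (limma adjusted p = 0.0685 and 0.0865). Gstm6 passed without KO-03 (0.0480), and both genes passed with array weights (0.0221 and 0.0279). A dimmer second probe set of Gstm7 differed by 0.01.

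The remaining mu genes differed by 0.41 or less. Gstm5, a mu transferase prominent in brain and testis, was 8.18 ± 0.22 (SD, n = 3) in wild-type liver and 8.59 ± 0.21 (SD, n = 4) in knockout. Gstm1, a major hepatic mu transferase, was at 12.81 ± 0.11 and 12.95 ± 0.15 (SD), and Gstm4 at 9.52 ± 0.10 and 9.44 ± 0.22 (SD). The 95% intervals of the 3 differences were 0.07 to 0.75, -0.13 to 0.42 and -0.39 to 0.24. Mu-class transcripts are close paralogs, and probe sets with the suffixes _s_at and _x_at, such as those used for Gstm3 and Gstm1, can bind related transcripts, so separate values of these 2 genes are less certain. Without probe sets of either suffix, Gstm3 was still called, by its second probe set (limma adjusted p = 0.0181), and Gstm1 differed by 0.13.

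**Figure D2:**
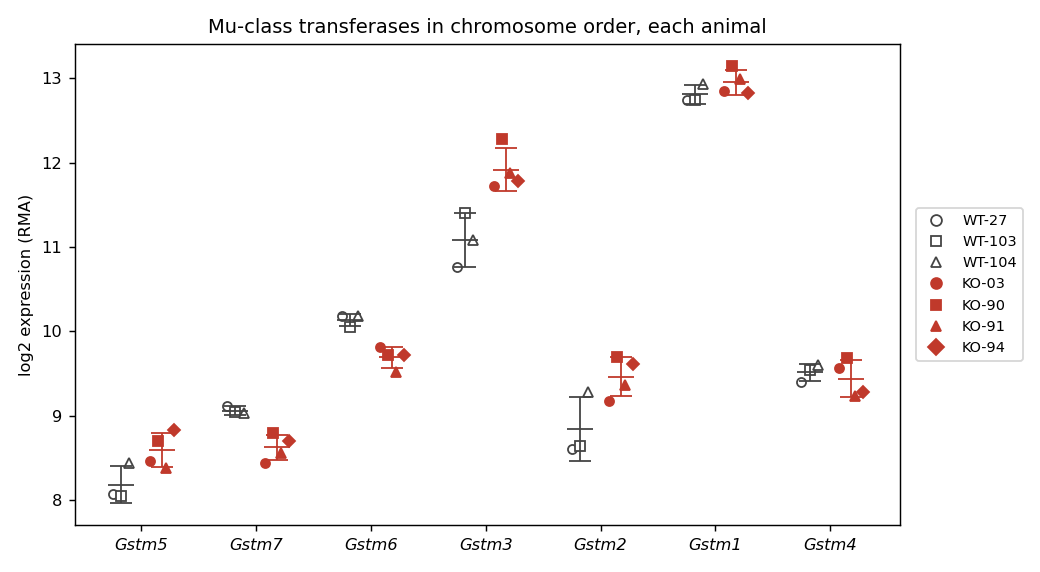
log2 expression (y axis) of the 7 mu-class genes in their order on the chromosome (x axis), with 1 symbol for each animal, wild type open and knockout filled; bars show mean ± SD. Knockout symbols lie above all wild-type symbols for Gstm3 and below them for Gstm7 and Gstm6, while the other 4 genes overlap.

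No alpha-class transferase passed. These enzymes conjugate products of lipid peroxidation, and Gsta4 is known for its activity on 4-hydroxynonenal. Gsta3 measured 13.19, 13.15 and 13.08 in wild-type animals and 13.21, 13.20, 13.04 and 12.61 in knockout animals. KO-94 was the lowest of the 7 animals and the others lay together. Gsta2 ran from 9.23 to 9.94 in wild type and from 8.92 to 10.42 in knockout, where KO-91 was the highest. Gsta4 was 9.19 ± 0.36 (SD, n = 3) in wild-type liver and 8.96 ± 0.29 (SD, n = 4) in knockout. The differences of Gsta2, Gsta3 and Gsta4 were -0.10, -0.12 and -0.23, with 95% intervals of -0.89 to 0.69, -0.48 to 0.23 and -0.70 to 0.23. The probe set shared by Gsta1, Gsta2 and Gm3776 averaged 8.90 ± 0.21 (SD, n = 3) and 8.95 ± 0.52 (SD, n = 4), also with KO-91 the highest at 9.69.

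The pi, theta, omega and zeta classes had 0 called members of 7. Gstp1, the main pi-class enzyme, measured 14.01, 14.24 and 14.23 in wild-type animals and 14.002, 13.69, 13.93 and 13.72 in knockout animals. All knockout animals were lower, KO-03 by less than 0.01 from WT-27. The difference was -0.32 (95% interval -0.61 to -0.04; limma adjusted p = 0.233). Gstz1, which also isomerises maleylacetoacetate in tyrosine breakdown, was at 12.40 ± 0.03 (SD, n = 3) and 12.18 ± 0.12 (SD, n = 4), with the groups apart and an adjusted p of 0.378 in limma. Gsto1, which reduces dehydroascorbate and thiol adducts, differed by -0.33, and its second probe set by -0.56. Theta-class members went both ways, with Gstt2 at 0.37, Gstt3 at 0.27 and Gstt1 at -0.13. Gstt3 rested on KO-90, which measured 9.55 while the other 6 animals lay between 8.57 and 8.87. Without KO-90 its difference was 0.06. Gsto2 did not exceed the floor on any of the 7 arrays, where the floor is the brightest bacterial control probe set on each array (4.71 to 5.23), so its fitted difference, which stands in the plot of all members and in counts over the 35, compares values with no measured order.

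Gstk1, the kappa-class transferase of mitochondria and peroxisomes, had the narrowest range among knockout animals of the 35 members, 0.08. It measured 10.95, 11.07 and 11.08 in wild-type animals and 11.40, 11.42, 11.41 and 11.34 in knockout animals. The knockout animals lay above the wild-type animals and close to each other. The difference was 0.36 ± 0.10 (SE), or 1.28-fold, and did not pass (limma adjusted p = 0.0937); it passed in 1 of 19 alternatives, array weights (limma adjusted p = 0.0398).

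Microsomal transferases sit in membranes and also act on lipid peroxides and leukotrienes. Mgst1, the liver form, was 13.94 ± 0.01 (SD, n = 3) in wild-type liver and 13.90 ± 0.13 (SD, n = 4) in knockout, a difference of -0.04 (95% interval -0.29 to 0.21). Mgst2, which can make leukotriene C4, lay under the floor in all 3 wild-type animals and in KO-03 and KO-90, and measured 5.37 in KO-91 and 6.00 in KO-94. With wild-type arrays raised to the floor its difference was 0.19, which is no minimum because KO-03 and KO-90 lay under the floor too. Mgst2 did not pass (limma adjusted p = 0.314), although it passed in 1 of 17 alternatives, without KO-03 (limma adjusted p = 0.0498). Mgst3 was at 7.33 ± 0.31 (SD, n = 3) and 7.87 ± 0.42 (SD, n = 4), with KO-90 highest at 8.44. Of the 3 microsomal members 0 passed.

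Of the regulators, Nfe2l2 rose and Keap1 did not pass. Nfe2l2 measured 9.11, 8.93 and 9.02 in wild-type animals and 9.55, 9.95, 9.69 and 9.45 in knockout animals. All knockout animals lay above all wild-type animals. The difference was 0.64 ± 0.14 (SE), or 1.56-fold (limma adjusted p = 0.0410). The call was lost without WT-27 (limma adjusted p = 0.0978), WT-103 (0.175), WT-104 (0.117), KO-90 (0.0734) or KO-91 (0.111) and kept without KO-03 or KO-94, and the difference stayed between 0.54 and 0.71 in those 7 fits. It was also lost when every probe set was tested on its own (limma adjusted p = 0.0530). The second Nfe2l2 probe set lay under the floor on all arrays, and averaging it in gave 0.45 (limma adjusted p = 0.198). Keap1, the adaptor that holds Nrf2 back, was at 8.20 ± 0.18 (SD, n = 3) and 8.29 ± 0.31 (SD, n = 4), a difference of 0.08 (95% interval -0.32 to 0.48). A second Keap1 probe set differed by 0.36 and did not pass when every probe set was tested on its own (limma adjusted p = 0.552). Transcript levels do not report how much Nrf2 protein was present or nuclear.

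Nqo1 and Hmox1, textbook targets of Nrf2, had wide spreads and did not pass. Nqo1, which reduces quinones in a single step that avoids semiquinone radicals, measured 5.51, 5.62 and 6.11 in wild-type animals and 6.02, 6.86, 6.46 and 6.87 in knockout animals. KO-03 lay below WT-104, and the other 3 knockout animals lay above all wild-type animals. The difference was 0.81 ± 0.23 (SE), or 1.75-fold (limma adjusted p = 0.111). It passed without KO-03 (limma adjusted p = 0.0222), without KO-03 and WT-104 together (0.0127) and with array weights (0.0365). Hmox1, which opens the haem ring to biliverdin, iron and carbon monoxide, measured 7.78, 7.02 and 7.32 in wild-type animals and 8.995, 8.12, 7.58 and 8.33 in knockout animals. Here KO-03 was the highest animal and KO-91 lay below WT-27. The difference was 0.88 (95% interval 0.19 to 1.58; limma adjusted p = 0.184), and it passed in 0 of 19 alternatives.

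Enzymes that make and recycle glutathione did not pass, 0 of 4. Gclc, the catalytic subunit of the rate-limiting glutamate-cysteine ligase, was 11.86 ± 0.29 (SD, n = 3) in wild-type liver and 11.67 ± 0.26 (SD, n = 4) in knockout, with KO-94 lowest at 11.34. Its modifier subunit Gclm was at 10.81 ± 0.20 and 11.12 ± 0.33 (SD), with KO-90 highest at 11.58. A second Gclm probe set differed the other way, by -0.24, with KO-94 lowest at 9.31. Glutathione synthetase Gss differed by 0.15 (95% interval -0.16 to 0.47), and glutathione reductase Gsr, which restores reduced glutathione with NADPH, by 0.15 (-0.19 to 0.49).

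Thioredoxin reductase Txnrd1 and sulfiredoxin Srxn1, which keep thioredoxin and peroxiredoxins in their reduced state, differed by 0.02 (95% interval -0.25 to 0.29) and 0.19 (-0.30 to 0.67). Txnrd1 measured 10.07, 9.997 and 9.91 in wild-type animals and 10.09, 10.09, 9.79 and 10.08 in knockout animals. KO-91 stood apart on the low side, below all other animals.

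**Figure D3:**
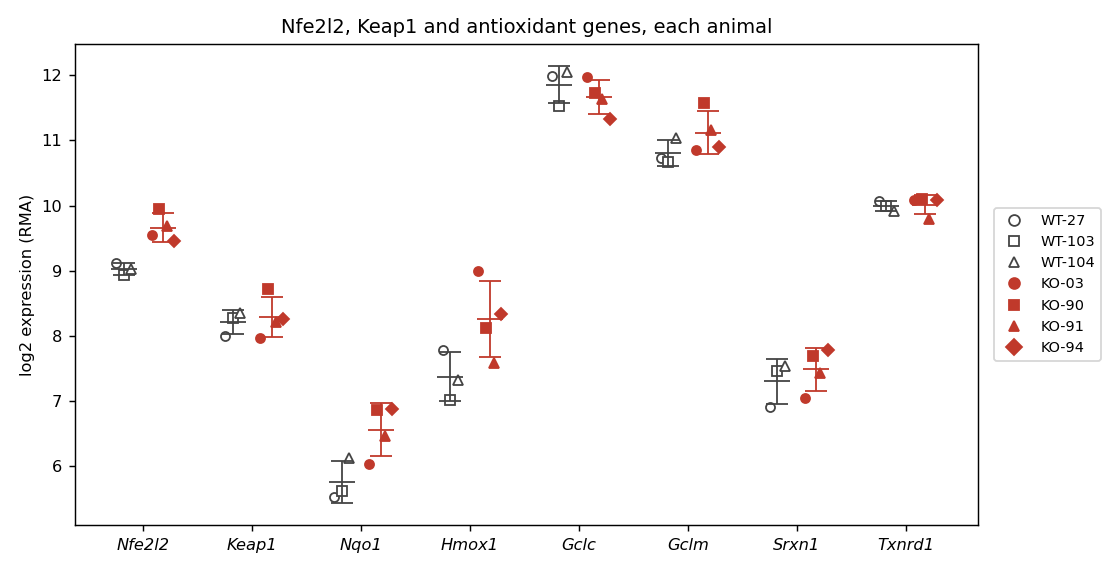
log2 expression (y axis) of Nfe2l2, Keap1 and 6 antioxidant genes (x axis), with 1 symbol for each animal and bars for mean ± SD. Knockout symbols clear the wild-type symbols for Nfe2l2 and overlap them for the other 7 genes; KO-03 is the lowest knockout animal for Nqo1 and the highest for Hmox1.

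The enzymes that remove superoxide and hydrogen peroxide had 0 calls of 4. Catalase, Cat, a peroxisomal enzyme, measured 13.22, 12.97 and 13.03 in wild-type animals and 13.28, 12.71, 12.92 and 12.58 in knockout animals. KO-03 was the highest of all 7 and the other 3 knockouts the lowest, so the groups overlapped around a difference of -0.20 (95% interval -0.59 to 0.19). The cytosolic dismutase Sod1 was at 12.46 ± 0.06 (SD, n = 3) and 12.28 ± 0.13 (SD, n = 4). The mitochondrial dismutase Sod2 was at 11.40 ± 0.16 and 11.16 ± 0.06 (SD), with all knockout animals lower. Its 2 next brightest probe sets were lower as well, by 0.38 and 0.65 on the log2 scale in size, with groups apart and no call (limma adjusted p = 0.117 and 0.104). The secreted dismutase Sod3 was at 7.49 ± 0.20 (SD, n = 3) and 7.84 ± 0.13 (SD, n = 4), with the groups apart at both of its probe sets (differences of 0.35 and 0.51). Sod2 and Sod3 had limma adjusted p of 0.345 and 0.226.

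Probe sets of the same gene did not always run together. Of 29 further probe sets of 19 members, 3 never exceeded the floor. Of the 26 that did, 17 had a difference of the same sign as the gene's main probe set and 9 of the other sign. The 9 belonged to Txnrd1 (2 of them), Gclm, Gsr, Gstm1, Gstm7, Mgst1, Sod1 and Srxn1, and none of these genes was called.

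**Figure D4:**
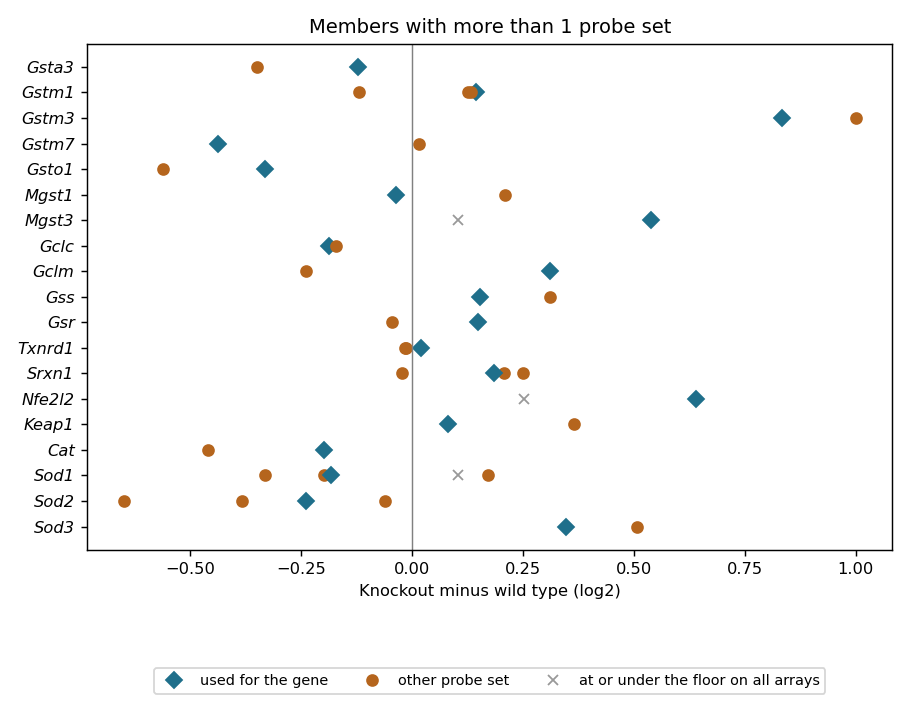
Knockout minus wild type (log2, x axis) of every probe set of the 19 members that have more than 1 (y axis); diamonds are the probe sets used, circles the others and crosses those that no array raised above the floor. Both Gstm3 probe sets lie at or above 0.83, all 4 of Sod2 lie below 0, and those of Gclm fall on both sides at 0.31 and -0.24.

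The 4 knockout animals differed from each other across the set. KO-90 lay outside the wild-type range in 30 of 35 members (85.7%), of which 21 were above it, while 63.7% of all genes lay outside that range in this animal. In KO-03, then KO-91, then KO-94, members outside numbered 22 (62.9%), 26 (74.3%) and 27 (77.1%), against 54.2%, 55.1% and 68.2% of all genes. KO-90 was the highest knockout animal for Nfe2l2, Gstm3, Gstm2, Gclm, Keap1, Mgst3, Gstk1, Gstm1, Gstt3 and Txnrd1. It was also the highest for Gstm4, Gstm7, Gsto1 and Gstt1, whose knockout means lay below the wild-type means. The SD among knockout animals exceeded that among wild-type animals in 23 of 35 members (65.7%), close to the 63.7% of all genes.

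Other genes of the pathway were taken from 6 lists of 101 genes, 89 of them measured. Of these 89, 5 rose and 1 fell (6.74% called, against 3.53% of all genes). The 3.53% includes dim genes and is no matched background. With only genes at or above the median expression level tested, 5 pathway genes were called, beside 444 genes higher and 184 lower in all. Far fewer genes were tested there, so the share called among them was above 3.53%. The 6.74% of the lists did not exceed that share. Whether the lists exceed genes of similar level was not tested. Of 12 partners and regulators of Nrf2, Nfe2l1 rose and 11 did not pass. Nfe2l1, which encodes the related factor Nrf1, averaged 7.55 ± 0.19 (SD, n = 3) in wild-type liver and 8.29 ± 0.14 (SD, n = 4) in knockout liver and rose by 0.74 ± 0.13 (SE) (limma adjusted p = 0.0211). It lost its call without KO-90 or KO-91 and without WT-103 or WT-104, at adjusted p up to 0.0982 in limma. Of 19 other Nrf2-responsive genes, 1 rose, 1 fell and 17 did not pass. The carbonyl reductase Cbr3 lay under the floor in wild type and rose by at least 0.99, with 5.01, 6.02, 6.18 and 6.36 in knockout animals (limma adjusted p = 0.0479). Osgin1, an oxidative stress-induced growth inhibitor, fell by 0.89 ± 0.17 (SE), with wild type at 10.80 ± 0.22 (SD, n = 3) and knockout at 9.92 ± 0.28 (SD, n = 4) (limma adjusted p = 0.0280). Cbr3 and Osgin1 both lost their calls when any 1 animal other than KO-03 was left out, at limma adjusted p up to 0.190 and 0.106.

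The list of relatives of the transferase fold or membrane family also held the hydrolase Faah, which belongs to neither. Of the 14 measured genes in this list, 3 rose, 0 fell and 11 did not pass. They were the chloride intracellular channel proteins Clic1, by 1.14 ± 0.19 (SE), and Clic4, by 0.64 ± 0.14 (SE), and the 5-lipoxygenase activating protein Alox5ap, by 1.19 ± 0.24 (SE), with limma adjusted p of 0.0161, 0.0422 and 0.0327. Clic1 lost its call when any 1 wild-type animal or KO-90 was left out, Alox5ap when any 1 animal other than KO-03 or KO-94 was, and Clic4 when any 1 other than KO-03 or KO-90 was, at limma adjusted p up to 0.0675, 0.120 and 0.137. Alox5ap is mainly a gene of myeloid cells, and Clic1 and Clic4 are expressed in many cell types. A list of thioredoxins, peroxiredoxins and glutaredoxins also held sestrins and other redox genes, and its only measured peroxiredoxins were Prdx2, Prdx3 and Prdx4. None of its 20 measured genes passed (smallest p for Txnrd3 at -0.38 and Sesn3 at 0.37, limma adjusted p = 0.276 and 0.311). None of 16 genes of glutathione breakdown and glyoxalases passed (Dpep1 0.71 higher with wild type raised to the floor and Chac2 at -0.73, limma adjusted p = 0.0696 and 0.309). The 0.71 is no minimum, because KO-03 lay under the floor for Dpep1. None of 8 genes of haem breakdown, transport and binding passed (Flvcr1 at 0.44 and Blvrb at -0.63, limma adjusted p = 0.113 and 0.146). At an unadjusted p under 0.05 these 3 lists had 1, 1 and 2 genes. The Nrf2 regulators had 3 of 12, the other Nrf2-responsive genes 5 of 19 and the transferase relatives 3 of 14, which makes 15 of the 89 genes in all, beside 16.4% of all genes.

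Cell-type markers moved on the same arrays, where 2.58% of all genes were called higher and 0.951% lower. Hepatocyte markers had 0 calls of 8, and their mean level was 12.72 to 12.82 in wild type and 12.77 to 12.96 in knockout. Of 8 cholangiocyte markers 5 rose (Cd24a, Tspan8, Epcam, Krt19 and Cldn7), while the defining markers Krt7 and Cftr lay under the floor on all arrays. The mean level of the 8 was 4.21 to 4.49 in wild type and 5.16 in KO-03 to 6.30 in KO-91. In wild type, Tspan8 and Cldn7 lay under the floor in all 3 animals, Epcam and Krt19 in 2 and Cd24a in 1. The wild-type level and the sizes of these rises are therefore uncertain. At the probe set brightest in wild type Epcam differed by -0.17 and Tspan8 by 0.44, and neither passed (limma adjusted p = 0.671 and 0.286). Krt19 and Cldn7 lost their calls when any 1 animal other than KO-03 was left out (limma adjusted p up to 0.109 and 0.167), and Epcam without WT-103 (0.0556). The mean of all probe sets gave 0.91 for Tspan8 and 1.006 for Epcam, and both passed. Of 11 stellate cell markers 4 rose (Pdgfra, Pdgfrb, Dcn and Hand2), with means of 7.67 to 7.74 and 8.08 to 8.43. Hand2 lost its call when any 1 animal other than KO-03 was left out (limma adjusted p up to 0.164), Dcn without WT-27 or WT-103 (up to 0.0732) and Pdgfrb without WT-103 (0.0530). With the mean of all probe sets Hand2 was at 0.43 and did not pass (limma adjusted p = 0.138), while Pdgfra at 0.91 and Dcn at 0.48 passed. Of 7 neutrophil markers S100a8 and S100a9 rose, with means of 4.46 to 4.89 and 5.35 to 6.23, and Mpo, Camp and Cxcr2 lay under the floor on all arrays. Without WT-27 or without WT-103 neither S100a8 nor S100a9 passed (limma adjusted p up to 0.0636 and 0.0831). Markers of macrophages (11 genes, means 8.27 to 8.79 and 8.65 to 9.16), sinusoidal endothelium (10 genes, 7.37 to 7.45 and 7.34 to 7.54) and erythroid cells (4 genes, 5.05 to 5.15 and 4.92 to 5.14) had 0 calls. Differences were above 0 in 11 of 11 macrophage markers, 5 of 10 endothelial and 1 of 4 erythroid markers. Marco was the largest of the macrophage markers, at 0.89 (limma adjusted p = 0.0667). The erythroid markers Hba-a1, Epb42 and Slc4a1 lay under the floor on all arrays. The part of other cell types in the differences of Nfe2l2, Gstm3, Nqo1, Hmox1, Nfe2l1, Cbr3, Clic1, Clic4 and Alox5ap was not tested.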

How the data were processed

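The authors made the deposited log2 values with RMA in Partek software, per the submitters' processing notes and the design text. RMA corrects background, normalizes quantiles across arrays and summarises probes. Their software version was not given in the sources used here. Deposited values covered 45101 probe sets on 7 arrays, with 0 pairs of identical arrays, and no counts lie behind array values, so the number of arrays limits the precision.

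Platform annotation gave 1 symbol to 34945 probe sets other than controls. For each of 18193 genes, 9010 with several probe sets, its brightest probe set by mean over the 7 arrays stood for it. In R 4.3.3, lmFit and eBayes of limma 3.58.1 gave two-sided p-values for knockout against wild type without covariates (5 residual and 3.99 prior degrees of freedom), adjusted by Benjamini-Hochberg over all genes, with 0.05 as the threshold. The fit was tested on simulated data. The floor is each array's brightest of 27 control probe sets for Bacillus subtilis genes, set by 1 probe set on every array; "at least" compares with the dimmer genotype's arrays raised to it.

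All members were named. Of the pathway lists, called genes were named, and otherwise the 2 with the smallest p; of the marker lists, called genes and defining markers under the floor. The members, lists and floor were chosen with earlier results of these data known. Python 3.11.15, pandas 2.3.3 and matplotlib 3.10.9 were also used. Alternatives changed the prior, array weights, normalization, dim-probe filter, probe set rule, threshold or the animals included. Array medians were 4.65 to 4.72. No probe set was named for miR-122, so the deletion itself was not checked.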

Additional observations from a re-analysis of the deposited data

Results flagged for a closer look

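Txnrd1 in KO-91, at 9.79, lay far below the other 3 knockout animals, which measured 10.08 to 10.09. Of 48 groups of 4 knockout values examined (35 members and 13 list means), 1 had a single animal this far apart. Chance gives about 1 in 20 groups, or 2.4 of 48, so 1 such group is not more than chance gives.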

How the results depend on the processing

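The count of called members changed with the processing and when single animals were left out. It was 2 higher and 0 lower, and became 4 and 2 with array weights, 1 and 0 with median centring or the mean of all probe sets, and 0 and 0 at an adjusted p under 0.01. Leaving out single animals gave 0 to 4 higher and 0 to 1 lower. Over all genes, 470 higher and 173 lower became 909 and 344 with array weights, 141 and 31 at an adjusted p under 0.01, 132 to 892 and 37 to 252 when single animals were left out, and 724 higher when KO-03 and WT-104 were both left out. The 6 called pathway genes became 13 with array weights and 0 at an adjusted p under 0.01, and 0 to 11 without single animals. Gstm3 was called in 10 and Nfe2l2 in 11 of 19 alternatives, and neither changed sign in any; Cbr3 was called in 6 of 17. With the probe set that was brightest in wild type, Epcam differed by -0.17 and Tspan8 by 0.44, and neither passed. No paired analysis was possible because the animal numbers of the 2 genotypes do not recur. Dim members (Gsto2, Mgst2) are limited by signal near the control floor.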
